A study of Mus musculus with 9 samples.

Results

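Fetal liver macrophages grown with GM-CSF (granulocyte-macrophage colony-stimulating factor) were compared with those kept in supernatant of L cells, a mouse fibroblast line that secretes M-CSF (macrophage colony-stimulating factor). The comparison used 6 of the 9 libraries of the series, 3 for each culture, and 11639 of the 46078 listed genes. A gene was taken where its FPKM (fragments per kilobase, scaled to the size of the library) was at least 1 in 3 or more of the 6 libraries. Both cultures were started from livers of C57BL/6J fetuses, an inbred laboratory mouse strain, taken at gestational day 15 to 19. The labels name no introduced gene or deletion in either. The culture called FLM_G received 30 ng/ml recombinant mouse GM-CSF and 10% fetal bovine serum. The culture called FLM_M received 30% L-cell supernatant and 20% fetal bovine serum. Both grew in high-glucose Dulbecco's medium for 8 weeks or longer, and 250000 cells per well were seeded in 3 wells on the day before RNA was taken. Growth factor, serum and the other contents of L-cell supernatant differed together, so their parts cannot be told apart. Nothing in the labels says that the 3 wells were separate cultures or animals, and the p-values therefore measure only the spread between libraries, which may be technical. The third culture of the series, bone marrow macrophages (BMM) of the same strain in a medium that the labels do not describe, is used below only as a reference level.

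M-CSF acts through the receptor tyrosine kinase CSF1R, which all mononuclear phagocytes carry, and keeps tissue macrophages alive and dividing. GM-CSF acts through a receptor made of a specific alpha chain (Csf2ra) and a shared beta chain (Csf2rb), which signals through the kinase JAK2 and the transcription factor STAT5. In the lung, GM-CSF induces the nuclear receptor PPARG in fetal monocytes, which then become alveolar macrophages, cells that clear surfactant lipid and are set apart by high CD11c (Itgax) and SIGLEC-F. In the liver, fetal monocytes and yolk sac cells give rise to Kupffer cells, which depend on M-CSF.

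The FPKM steps of low genes put the libraries at 28570000 to 31350000 reads for FLM_G and 31050000 to 35680000 for FLM_M. These are best fits, at which 29.5% to 34.1% of the values lay within 2% of a whole read, against 4.0% by chance. Pearson correlations across genes were 0.985 to 0.991 within a culture and 0.775 to 0.789 between the cultures. The summed FPKM of FLM_G was concentrated in fewer entries, some of which, such as Gm22133 and Gm10925, may share reads with other genes. The 10 highest genes held 30.9% to 33.0% of the summed FPKM in FLM_G and 15.7% to 17.6% in FLM_M, and mitochondrially encoded genes 20.6% to 20.8% against 9.37% to 11.3%. Levels below were therefore scaled between libraries, by multiplying FPKM with factors derived from TMM (1.17 to 1.2 for FLM_G and 0.84 to 0.849 for FLM_M). They are given as scaled FPKM, in the order of replicates 1, 2 and 3 or as mean ± SD (n = 3). Differences are FLM_G minus FLM_M on the log2(FPKM + 1) scale, on which low genes change less than their true ratio, and the standard error (SE) is that of the limma fit. A gene is called, and said to have risen or fallen in FLM_G, where its limma p adjusted by Benjamini-Hochberg over all genes tested is under 0.05.

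Both cultures carried the genes that define macrophages. All 10 macrophage markers examined reached 5 FPKM, with a summed level of 25900 to 26100 in FLM_G and 5820 to 6030 in FLM_M. Spi1, which codes for the lineage factor PU.1, stood at 144, 164 and 182 FPKM in the FLM_G libraries and 84.6, 98.2 and 85.8 in the FLM_M libraries (log2 difference 0.86, SE 0.10, limma adjusted p = 0.000342). Adgre1, the gene of the macrophage antigen F4/80, stood at 72.8, 69.3 and 65.1 FPKM in the FLM_G libraries and 150.3, 111 and 140.5 in the FLM_M libraries (log2 difference -0.93, SE 0.12, limma adjusted p = 0.00044). The groups did not overlap for either gene, as was the case for 72.9% of all genes tested. Itgam (CD11b) fell from 92.3 ± 12.4 in FLM_M to 25.4 ± 2.58 in FLM_G, Cd14, the co-receptor for bacterial lipopolysaccharide, from 194 ± 9.66 to 33 ± 0.37, and Fcgr1, the high-affinity receptor for immunoglobulin G, from 108 ± 2.68 to 18.5 ± 0.36. Markers of most other cell types were near 0. B cell markers were at 0 in all 6 libraries, and the summed levels of dendritic, eosinophil, mast cell, erythroid, fibroblast, T cell and progenitor markers did not exceed 2.95 FPKM. Of 7 neutrophil markers only S100a8 was above 0 (from 10.5 ± 1.37 in FLM_M to 51.1 ± 3.39 in FLM_G), and Ly6g, Mpo and Elane were at 0. Of 6 hepatocyte markers Trf (transferrin, from 30.3 ± 3.92 to 122 ± 7.12) carried nearly all of the sum, and 4 were at 0, Alb among them. The endothelial list summed to 4.06 to 4.23 in FLM_G and 5.97 to 7.81 in FLM_M, where Kdr held most of it (6.35 ± 0.87, against 0.053 ± 0.016 in FLM_G), while Cdh5 held most of it in FLM_G (4.11 ± 0.08, against 0.44 ± 0.087 in FLM_M), and most of the megakaryocyte list was the platelet chemokine gene Pf4 (157 ± 20.9 against 0.55 ± 0.12). The Kupffer cell markers summed to 7.67 to 8.77 in FLM_G and 8.99 to 10.6 in FLM_M. In bulk RNA, fewer cells of a type and less RNA per cell cannot be told apart.

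The 2 cultures differed at most of the genes they expressed. Of 11639 genes, 7947 were called (68.3%), 4030 of them higher in FLM_G (34.6%) and 3917 lower (33.7%). A difference of at least 2-fold was called in 2528 genes (21.7%), of which 1334 rose and 1194 fell, and a difference of at least 32-fold in 97 genes, of which 58 rose and 39 fell. The median absolute log2 difference over all genes tested was 0.45, with a median SE of 0.082, and the median difference was 0.0065. In 8482 genes (72.9%) the 6 values did not overlap between the cultures, so a lack of overlap is common here. Some genes had to differ. The filter was passed only through the FLM_G libraries by 504 genes and only through the FLM_M libraries by 854. Among the 10281 genes that did not depend on 1 culture, 6642 were called (64.6%). Of the genes called at least 2-fold, 138 that rose were listed at 0 in all FLM_M libraries and 88 that fell were listed at 0 in all FLM_G libraries. The balance of directions depended on the scaling. With FPKM as deposited, the median gene lay at -0.4 and 8928 calls divided into 2105 higher and 6823 lower, 23.6% higher against 50.7% with scaling. Directions below are relative to the scaled median, and counts without scaling are given beside those of a list where they differ. The counts of every list are to be read against the 34.6% of all genes that rose and the 33.7% that fell. Genes below that stand under 1 FPKM as deposited in every library of 1 culture could pass only through the other, so their p-values and lack of overlap only describe them.

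**Figure D1:**
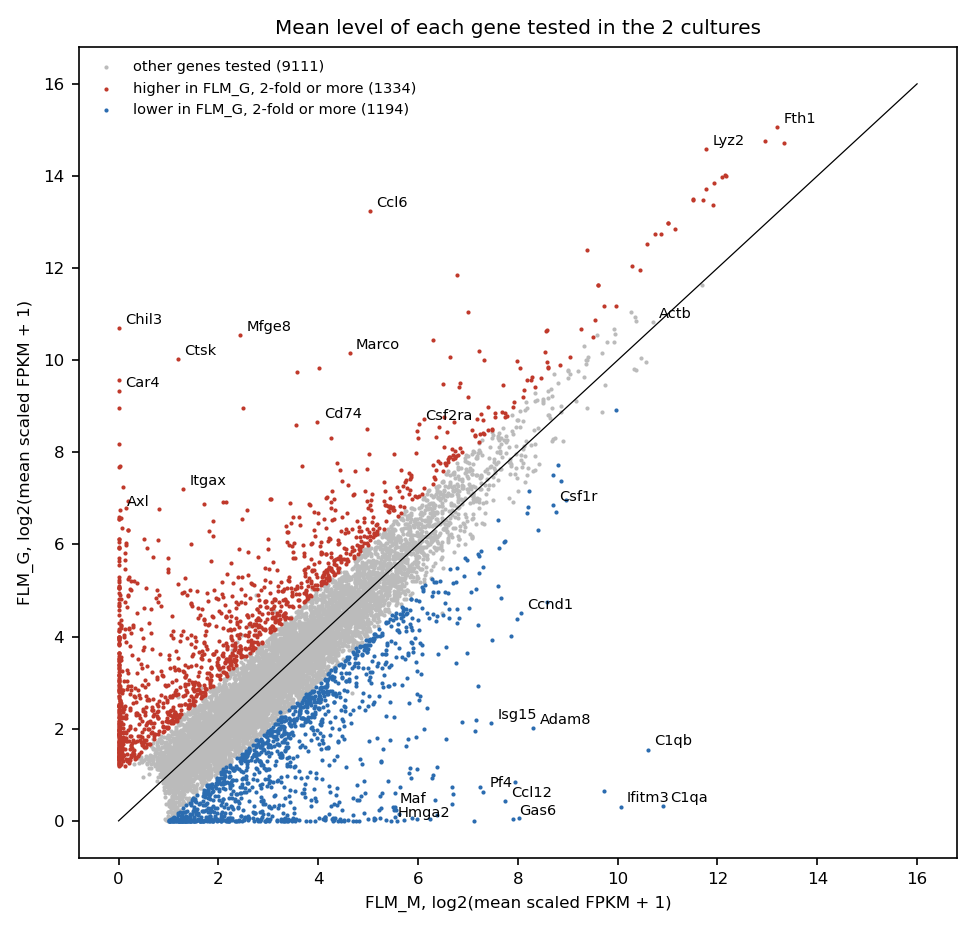
Mean level of the 11639 genes tested, in FLM_M (x axis) and FLM_G (y axis), as log2 of the mean scaled FPKM plus 1. Each point is 1 gene, the line marks equal levels, red points are the 1334 genes called at least 2-fold higher in FLM_G and blue points the 1194 called at least 2-fold lower. Chil3 and Car4 lie on the left edge, listed at 0 in FLM_M, while C1qa and Ifitm3 lie at the lower right.

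Both chains of the GM-CSF receptor and most genes of its response list were higher in the culture that received GM-CSF. Csf2ra stood at 345, 412 and 417 FPKM in the FLM_G libraries and 58.8, 67.7 and 63.9 in the FLM_M libraries (log2 difference 2.60, SE 0.094, limma adjusted p = 7.81e-07). Csf2rb stood at 182, 205 and 192 FPKM in the FLM_G libraries and 29.6, 21.9 and 25.1 in the FLM_M libraries (log2 difference 2.88, SE 0.11, limma adjusted p = 1.09e-06). Every FLM_G library lay above every FLM_M library for both chains. Csf2rb2, the mouse copy of the beta chain gene whose reads may be shared with Csf2rb, rose from 44.4 ± 3.53 to 77.3 ± 6.76. Of 23 tested members of the GM-CSF receptor and STAT5 list, 16 rose, 4 fell and 3 were not called, with a median log2 difference of 0.72 against 0.0065 over all genes. Without scaling the split was 12 higher and 6 lower. The filter was passed through 1 culture alone by 5 of them. 3 feedback inhibitors of cytokine signalling rose: Cish from 0.039 ± 0.0068 to 4.7 ± 0.18, Socs2 from 0.02 ± 0.013 to 2.04 ± 0.11 and Socs3 from 1.39 ± 0.028 to 15.4 ± 0.81. Pim1, a STAT5-induced kinase gene, rose from 19.2 ± 0.58 to 107 ± 4, while its relatives Pim2 and Pim3 fell from 2.34 ± 0.094 to 1 ± 0.17 and from 4.72 ± 0.26 to 2.71 ± 0.31. Ccl17, a chemokine for T cells, stood at 70.6, 69.6 and 66.9 FPKM in the FLM_G libraries and was listed at 0 in all 3 FLM_M libraries (limma adjusted p = 3.54e-09). The other members that fell were the repressor gene Bcl6, from 11.4 ± 0.78 to 2.05 ± 0.1, and the kinase gene Cdk6, from 8.92 ± 0.87 to 2.9 ± 0.065. Jak2 itself was at 5.74 ± 0.5 in FLM_M and 6.31 ± 0.25 in FLM_G (log2 difference 0.12, SE 0.075, limma adjusted p = 0.199), and was not called, nor were the survival gene Bcl2l1 and the receptor gene Tnfrsf13b.

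STAT5 and other STAT factors bind the GAS motif, written TTCNNNGAA. On both strands it was found in 8.49% of 22862 RefSeq promoters (250 bases before to 50 after the start of genes with 1 listed promoter), in 6.87% of the promoters of genes tested, in 6.77% of those of genes at least 4-fold higher in FLM_G, and in 4 of the 14 members of the GM-CSF list with a promoter sequence (28.6%), namely Csf2rb2, Cish, Socs3 and Ccl17. A match describes the letters and not a bound site. The promoters of Cish and Ccl17, 2 response genes that differed strongly, are shown because they hold the motif, which is in capitals. They are the first 280 bases of the RefSeq window on GRCm38.p6, chr9:107296409-107296688 and chr8:94810203-94810482, both on the plus strand, with the start at base 251.
Cish: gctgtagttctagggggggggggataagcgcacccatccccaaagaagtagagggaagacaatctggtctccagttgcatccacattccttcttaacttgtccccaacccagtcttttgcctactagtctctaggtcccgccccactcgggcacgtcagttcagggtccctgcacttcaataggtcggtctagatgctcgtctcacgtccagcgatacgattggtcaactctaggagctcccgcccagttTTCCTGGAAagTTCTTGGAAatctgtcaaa
Ccl17: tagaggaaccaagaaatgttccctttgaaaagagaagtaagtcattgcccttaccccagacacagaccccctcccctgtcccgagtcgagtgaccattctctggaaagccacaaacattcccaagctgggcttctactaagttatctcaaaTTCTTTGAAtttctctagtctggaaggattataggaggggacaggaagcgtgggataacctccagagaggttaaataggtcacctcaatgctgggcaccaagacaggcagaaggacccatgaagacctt
Cish holds 2 matches, at bases 251 to 259 and 262 to 270, and Ccl17 holds 1, at bases 152 to 160.

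The M-CSF macrophage programme was lower in FLM_G, and its complement genes were almost absent there. Csf1r, the M-CSF receptor gene, stood at 111, 119 and 112 FPKM in the FLM_G libraries and 445, 394 and 405 in the FLM_M libraries (log2 difference -1.85, SE 0.068, limma adjusted p = 8.21e-07), so the gene was still expressed without L-cell supernatant, below the level of every FLM_M library. C1qa (ENSMUSG00000036887, chromosome 4, 136895917 to 136898803 on GRCm38), a chain of the complement starter C1q, stood at 0.55, 0.074 and 0.15 FPKM in the FLM_G libraries and 1869.9, 2067 and 1859.6 in the FLM_M libraries (log2 difference -10.61, SE 0.14, limma adjusted p = 1.16e-08). Its neighbours C1qb and C1qc fell from 1563 ± 129 to 1.92 ± 0.12 and from 842 ± 54.3 to 0.56 ± 0.084. Of 22 tested members 5 rose, 16 fell and 1 was not called, with a median log2 difference of -3.10; without scaling the split was 4 higher and 17 lower, with a median of -3.37. Folr2, a folate receptor of resident macrophages, fell from 259.9 ± 18 in FLM_M to 0.038 ± 0.065 in FLM_G. Stab1, a scavenger receptor, fell from 74.3 ± 6.55 to 0.024 ± 0.013, and the chemokine gene Pf4 from 157 ± 20.9 to 0.55 ± 0.12. Cx3cr1, the fractalkine receptor gene, fell from 7.35 ± 0.52 to 0.22 ± 0.051. The members that rose were Csf1, the M-CSF gene itself (from 0.8 ± 0.034 in FLM_M to 2.39 ± 0.18 in FLM_G), the mannose receptor gene Mrc1 (from 83.4 ± 2.48 to 223 ± 17.5), Mertk, a receptor for dying cells (from 10.1 ± 0.65 to 61.5 ± 1.6), the transporter gene Slco2b1 (from 1.44 ± 0.044 to 16.4 ± 1.28) and Gpr34 (from 2.04 ± 0.2 to 3.34 ± 0.42), which was not called without scaling (limma adjusted p = 0.168). Csf1, Csf1r and Mertk thus moved in different directions within 1 list. The filter was passed through 1 culture alone by 11 of the 22 members.

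Genes that mark alveolar macrophages were higher in FLM_G without exception among the 22 tested, as they were without scaling (22 higher and 0 lower). The list held 27 genes and was chosen with earlier results of these data known, so its count only describes it. Krt79, Cidec, Cd2, Kcnip4 and Ear10 did not pass the filter and were not tested. All of these were listed at 0 in FLM_M. Ear10 stood at 37.8, 37.2 and 0.46 FPKM in the FLM_G libraries, and the others stayed under 1 FPKM there. The median log2 difference was 4.43. Of the 22, 11 passed the filter only through FLM_G and had to differ. Chil3 (ENSMUSG00000040809, chromosome 3, 106147554 to 106167564), a chitinase-like lectin, stood at 1717, 1597 and 1654 FPKM in the FLM_G libraries and was listed at 0 in all 3 FLM_M libraries (limma adjusted p = 1.08e-09). Car4, a carbonic anhydrase (ENSMUSG00000000805, chromosome 11, 84957786 to 84966044), stood at 637, 612 and 667 FPKM in the FLM_G libraries and was listed at 0 in all 3 FLM_M libraries. Ear2, an eosinophil-associated ribonuclease with close copies that may share its reads, stood at 725, 749 and 815 FPKM in the FLM_G libraries and was listed at 0 in all 3 FLM_M libraries. Of the 2 fetal liver cultures, these 3 genes were therefore found in FLM_G alone at this depth. In BMM Chil3 was at 0.48, Ear2 at 0.089 and Car4 at 0. Plet1 was also listed at 0 in FLM_M and was at 500.1 ± 49 in FLM_G. Marco, a scavenger receptor, stood at 1121, 1087 and 1206 FPKM in the FLM_G libraries and 22.3, 24.3 and 24.9 in the FLM_M libraries (log2 difference 5.52, SE 0.069, limma adjusted p = 1.03e-08). Itgax (CD11c) stood at 144, 150.3 and 147 FPKM in the FLM_G libraries and 1.51, 1.4 and 1.45 in the FLM_M libraries (log2 difference 5.91, SE 0.052, limma adjusted p = 3.54e-09). Siglecf, a sialic acid lectin, stood at 28.4, 29.1 and 29.4 FPKM in the FLM_G libraries and 0.16, 0.11 and 0.13 in the FLM_M libraries (log2 difference 4.72, SE 0.057, limma adjusted p = 9.15e-09). Siglecf passed the filter only through FLM_G, and the groups of Marco and Itgax did not overlap. The lipid carriers Fabp4 and Fabp1 rose from 6.94 ± 0.67 to 69 ± 4.94 and, listed at 0 in FLM_M, to 10.4 ± 2.4. Serpinb1a, an inhibitor of neutrophil proteases, rose from 0.11 ± 0.031 to 64 ± 3.37. The summed level of the 11 alveolar markers used as a check of cell type was 4870 to 5210 FPKM in FLM_G and 39.3 to 43.3 in FLM_M. Beyond the list, the largest rises included those of Hvcn1, a proton channel, from 0.14 ± 0.063 to 123 ± 4.27, and Sort1, a sorting receptor, from 0.11 ± 0.013 to 110.3 ± 1.83. Listed at 0 in FLM_M were also Mcemp1, a membrane protein of mast cells and macrophages (289 ± 23.7 in FLM_G), Nov, also called Ccn3, a secreted matrix protein (206 ± 11.8), and Wfdc21 (95.4 ± 8.93). F7, the gene of coagulation factor VII, stood at 199.6, 214 and 211 FPKM in the FLM_G libraries and 0, 0.073 and 0 in the FLM_M libraries.

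**Figure D2:**
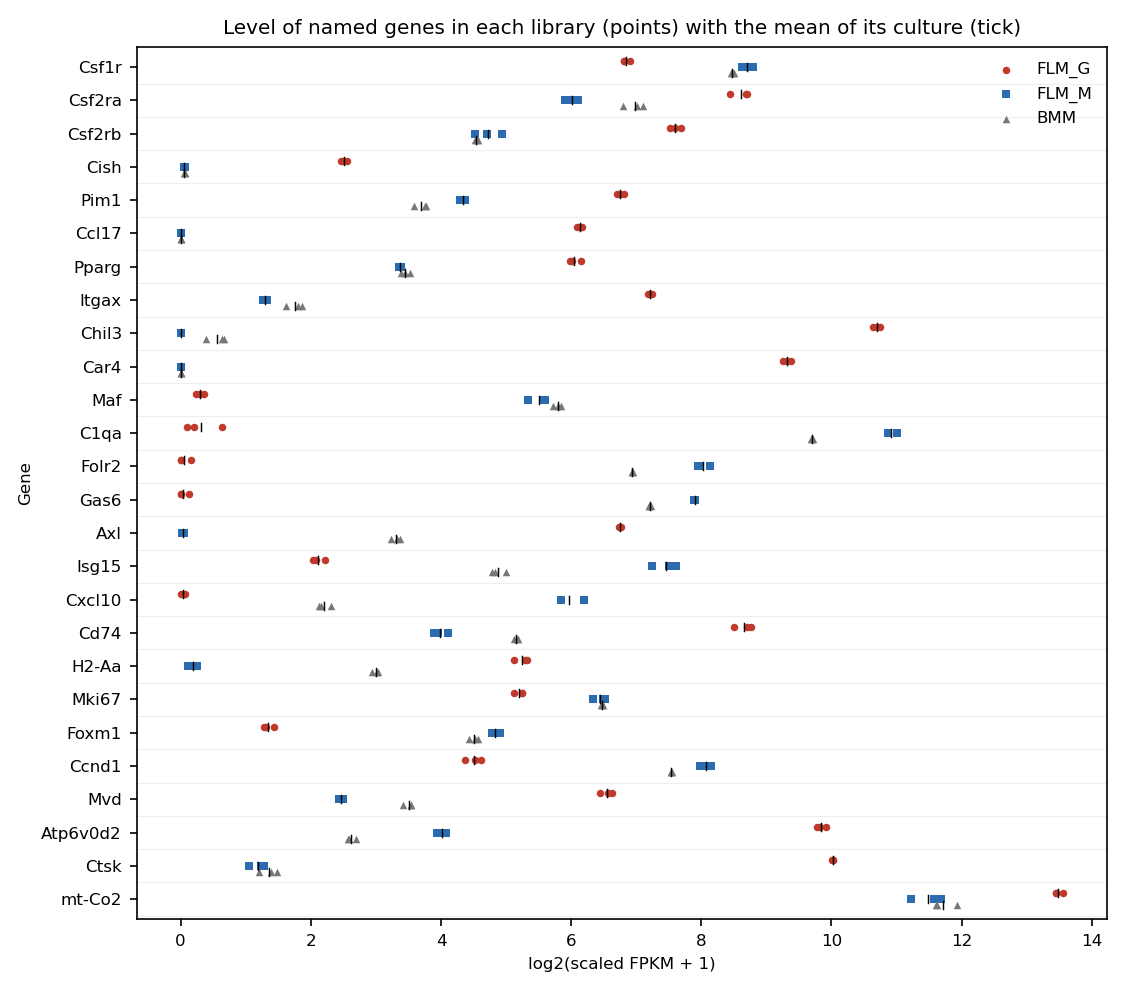
Level of 26 genes in each library, as log2 of the scaled FPKM plus 1 on the x axis, for FLM_G (red circles), FLM_M (blue squares) and BMM (grey triangles); the black tick is the mean of the 3 log values. FLM_G lies apart from FLM_M in every row drawn, with Chil3, Car4 and Ccl17 at 0 in FLM_M and C1qa, Folr2, Gas6, Maf and Cxcl10 near 0 in FLM_G.

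The list of Kupffer cell and resident macrophage genes was divided, with 6 of 12 higher, 5 lower (5 higher and 6 lower without scaling), and the sign of their median (0.065) turned negative without scaling (-0.35) and with quantile normalization (-0.065). Nr1h3, the gene of the oxysterol receptor LXR alpha, stood at 20.6, 24.3 and 27.1 FPKM in the FLM_G libraries and 0.081, 0.12 and 0.16 in the FLM_M libraries (log2 difference 4.47, SE 0.10, limma adjusted p = 9.02e-08). Cd5l, a secreted protein of resident macrophages, fell from 6.12 ± 0.48 in FLM_M to 0.013 ± 0.022 in FLM_G, and the lectin gene Fcna from 42.7 ± 1.39 to 9.42 ± 0.6, while Clec1b rose from 0.45 ± 0.065 to 6.46 ± 0.5. The defining Kupffer genes Clec4f and Vsig4 were below the filter in both cultures. Of 24 pan-macrophage genes 14 rose and 9 fell (11 higher and 10 lower without scaling). Lyz2, the lysozyme gene, stood at 24739.5, 24536 and 24454 FPKM in the FLM_G libraries and 3424, 3538 and 3538 in the FLM_M libraries (log2 difference 2.81, SE 0.087, limma adjusted p = 3.70e-07), although reads of Lyz1 and Lyz2 may be shared. Itgb2, the beta chain of the leukocyte integrins, rose from 113 ± 4.73 to 729 ± 9.68. Aif1, which codes for the actin-binding protein IBA1, fell from 21.2 ± 4.1 to 0.18 ± 0.16, and Cd68, a lysosomal glycoprotein, from 1314 ± 133 to 882 ± 46.1. Fcgr3 was at 168 ± 28.6 and 185 ± 21.4 (limma adjusted p = 0.387) and was not called.

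Among macrophage transcription factors 29 of 43 tested rose, 7 fell and 7 were not called, a split of 21 higher and 12 lower without scaling. c-MAF restrains division in mature macrophages, and its gene was low in FLM_G. Maf stood at 0.28, 0.23 and 0.18 FPKM in the FLM_G libraries and 46.5, 39.2 and 47.5 in the FLM_M libraries (log2 difference -5.20, SE 0.089, limma adjusted p = 2.97e-08). Maf passed the filter only through FLM_M and had to differ. Myc and Klf4, which are linked to macrophage self-renewal, moved the other way. Myc stood at 38.5, 32.6 and 38 FPKM in the FLM_G libraries and 17.6, 24.8 and 21.5 in the FLM_M libraries (log2 difference 0.76, SE 0.13, limma adjusted p = 0.00189, or 0.0827 for a difference of 0.28 without scaling), and Klf4 rose from 4.36 ± 0.35 to 58.4 ± 2.99. Klf2 was called higher, from 13 ± 1.02 to 16.6 ± 1.28, but its log2 difference of 0.33 was smaller than the shift of the median that scaling removed, and its sign turned without scaling. Pparg, the nuclear receptor of alveolar macrophages, stood at 63.6, 61.9 and 70 FPKM in the FLM_G libraries and 9.21, 9.48 and 9.48 in the FLM_M libraries (log2 difference 2.67, SE 0.063, limma adjusted p = 1.02e-07). Bhlhe40, a repressor needed for alveolar macrophage renewal, rose from 11.3 ± 0.38 to 95.8 ± 2.91, and its relative Bhlhe41 from 16.9 ± 0.29 to 54.2 ± 3.23. Egr2 rose from 0.73 ± 0.053 to 67.1 ± 12.3, the AP-1 family gene Batf was listed at 0 in FLM_M and at 11.5 ± 1.48 in FLM_G, and Cebpb rose from 62.4 ± 3.25 to 353 ± 43.4 and Cebpa from 34.4 ± 1.96 to 59.6 ± 2.46. Irf8 fell slightly, from 12.3 ± 0.71 to 10.2 ± 0.22 (log2 difference -0.25, SE 0.062, limma adjusted p = 0.0107).

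Cell division genes were lower in FLM_G. All 33 mitosis and spindle genes tested fell and 0 rose, with a median log2 difference of -1.26, and 32 of 33 DNA replication genes fell and 0 rose, with a median of -1.03; 33.7% of all genes tested fell, and the counts of both lists were the same without scaling. Mki67, the antigen of cycling cells, stood at 37.1, 33.7 and 36.8 FPKM in the FLM_G libraries and 90.4, 79.7 and 89 in the FLM_M libraries (log2 difference -1.25, SE 0.071, limma adjusted p = 7.44e-06). Cdk1, the kinase that starts mitosis, stood at 14, 13.3 and 14.3 FPKM in the FLM_G libraries and 39, 46 and 43.7 in the FLM_M libraries (log2 difference -1.56, SE 0.074, limma adjusted p = 3.00e-06). Foxm1, the transcription factor of mitotic genes, stood at 1.71, 1.48 and 1.44 FPKM in the FLM_G libraries and 29, 26.8 and 26.6 in the FLM_M libraries (log2 difference -3.48, SE 0.07, limma adjusted p = 5.25e-08). The mitotic genes were thus still expressed in FLM_G, at a lower level in each of its libraries. Bub1 of the spindle checkpoint fell from 19.3 ± 0.47 to 5.82 ± 0.48 and Ect2, which drives cytokinesis, from 9.35 ± 1.38 to 2.24 ± 0.52. The helicase subunits Mcm2 and Mcm6 fell from 57.6 ± 2.67 to 20.2 ± 0.82 and from 66.7 ± 2.14 to 23.6 ± 0.77, and the polymerase gene Pole from 7.63 ± 0.45 to 2.08 ± 0.091. In the list of cyclins, CDK inhibitors and MYC partners 7 of 27 rose and 17 fell (3 higher and 19 lower without scaling). Of the D-type cyclins, which couple growth factor signals to the cycle, Ccnd1 fell, Ccnd2 rose and Ccnd3 was not called (2.61 ± 0.76 in FLM_M and 3.68 ± 0.82 in FLM_G). Ccnd1 stood at 23.6, 21.9 and 19.7 FPKM in the FLM_G libraries and 282, 251 and 269 in the FLM_M libraries (log2 difference -3.56, SE 0.082, limma adjusted p = 8.93e-08), and Ccnd2 stood at 31.6, 31.6 and 29.3 FPKM in the FLM_G libraries and 9.7, 7.66 and 8.66 in the FLM_M libraries (log2 difference 1.72, SE 0.089, limma adjusted p = 4.32e-06). Cdkn2c, an inhibitor of CDK4 and CDK6, fell from 41.5 ± 1.46 to 9.16 ± 0.57, while Cdkn1a, which codes for p21, rose from 32.4 ± 1.37 to 106 ± 3.81. Trp53 fell from 29.7 ± 2.45 to 15.1 ± 1.07.

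Promoters of mitotic genes commonly hold the CHR motif, TTTGAA, bound by MuvB complexes, and CCAAT boxes. On both strands the CHR letters were in 18.5% of all promoters, 12.1% of those of genes tested and 19 of the 25 mitosis genes with a promoter sequence (76%), and CCAAT was in 38.2%, 40.1% and 80%. The letters TTTGGCG, a form of the E2F site, were in 1.5% of all promoters, 2.83% of those of genes tested and 7 of 23 replication genes (30.4%). The promoters of Ccnb2, a mitotic cyclin that fell from 49.6 ± 2.4 in FLM_M to 25.2 ± 1.61 in FLM_G, and Cdc20, an activator of the anaphase-promoting complex that fell from 22.3 ± 0.5 to 10.1 ± 0.56, are shown with CHR in capitals, at chr9:70421525-70421804 and chr4:118437314-118437593, both on the minus strand of GRCm38.p6 and with the start at base 251.
Ccnb2: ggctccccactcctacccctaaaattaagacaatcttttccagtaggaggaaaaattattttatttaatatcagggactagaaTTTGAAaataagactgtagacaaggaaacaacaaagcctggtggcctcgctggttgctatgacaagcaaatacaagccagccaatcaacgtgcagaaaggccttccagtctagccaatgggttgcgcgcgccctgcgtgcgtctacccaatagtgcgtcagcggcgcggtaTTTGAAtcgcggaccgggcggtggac
Cdc20: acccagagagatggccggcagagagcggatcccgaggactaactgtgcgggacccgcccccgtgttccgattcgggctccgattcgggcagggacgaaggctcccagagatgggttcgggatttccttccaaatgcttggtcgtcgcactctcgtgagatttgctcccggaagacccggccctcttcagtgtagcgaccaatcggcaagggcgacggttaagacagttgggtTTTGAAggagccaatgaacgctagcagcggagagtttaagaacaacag
Ccnb2 holds the letters at bases 84 to 89 and 255 to 260, and Cdc20 at bases 233 to 238.

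Interferon-stimulated genes were lower in FLM_G. Of 40 tested, 39 fell and 1 rose, with a median log2 difference of -3.19 and the same counts without scaling; 14 passed the filter through 1 culture alone. Ifitm3, which blocks virus entry, stood at 0.5, 0.057 and 0.17 FPKM in the FLM_G libraries and 966, 1179 and 1062 in the FLM_M libraries (log2 difference -9.76, SE 0.14, limma adjusted p = 1.66e-08). Ifit3, which binds viral RNA complexes and shares near-identical sequence with Ifit3b, stood at 0.75, 0.64 and 0.62 FPKM in the FLM_G libraries and 140.1, 146 and 164 in the FLM_M libraries (log2 difference -6.50, SE 0.076, limma adjusted p = 8.85e-09). Cxcl10, an interferon-induced chemokine, stood at 0.036, 0 and 0.048 FPKM in the FLM_G libraries and 56.6, 56.5 and 72.8 in the FLM_M libraries (log2 difference -5.93, SE 0.11, limma adjusted p = 3.77e-08). FLM_G was at or near 0 for these 3 genes in every library. Isg15, a ubiquitin-like modifier, fell from 175 ± 22 to 3.33 ± 0.27, and Usp18, the protease that removes it, from 102 ± 5.65 to 0.65 ± 0.22. Of the factors that drive these genes, Stat2 fell from 60.5 ± 2.59 to 14.7 ± 0.95, Irf9 from 16 ± 0.27 to 6.08 ± 0.81 and Irf7 from 54.7 ± 1.3 to 2.42 ± 0.53. The exception was Zbp1, a sensor of Z-form nucleic acid, which rose from 0.73 ± 0.083 to 4.62 ± 0.12. The interferon gene Ifnb1 was below the filter. MHC class I genes followed the same direction, with 20 of 24 lower, 0 higher and 4 not called (0 higher and 23 lower without scaling). H2-Q7, H2-Q6 and H2-Q4 fell from 17.6 ± 0.6 to 0.11 ± 0.11, from 29.4 ± 1.67 to 0.83 ± 0.12 and from 62.3 ± 3.4 to 8.61 ± 0.47, and their reads may be divided between near-identical copies. Nlrc5, the transactivator of class I genes, fell from 15.8 ± 0.32 to 1.48 ± 0.13. The light chain gene B2m stood at 2950.4, 3247 and 3273 FPKM in the FLM_G libraries and 3179.7, 3445 and 3281 in the FLM_M libraries and was not called (limma adjusted p = 0.511). The peptide-loading chaperone Calr was not called either.

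The interferon-activated complex ISGF3 and the IRF factors bind the ISRE, searched as GAAANNGAA. On both strands it was found in 8.62% of all promoters, 7.69% of those of genes tested, 41 of 211 genes at least 4-fold lower in FLM_G (19.4%), 17 of 251 genes at least 4-fold higher (6.77%) and 17 of 24 members of the interferon list (70.8%). The promoters of Ifit3 (chr19:34583279-34583558, plus strand) and Isg15 (chr4:156200789-156201068, minus strand) on GRCm38.p6 are shown because each holds 3 matches, in capitals, which overlap one another in Isg15.
Ifit3: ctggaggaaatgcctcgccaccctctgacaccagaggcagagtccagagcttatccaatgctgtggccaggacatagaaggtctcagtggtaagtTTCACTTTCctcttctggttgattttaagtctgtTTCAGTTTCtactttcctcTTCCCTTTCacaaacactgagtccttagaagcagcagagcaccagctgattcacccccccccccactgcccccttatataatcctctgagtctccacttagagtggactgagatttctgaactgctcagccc
Isg15: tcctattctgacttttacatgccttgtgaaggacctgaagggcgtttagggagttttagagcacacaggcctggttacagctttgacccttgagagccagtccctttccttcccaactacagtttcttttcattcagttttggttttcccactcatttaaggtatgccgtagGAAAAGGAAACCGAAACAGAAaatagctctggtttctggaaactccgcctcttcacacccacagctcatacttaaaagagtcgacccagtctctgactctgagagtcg
The matches begin at bases 96, 130 and 149 of Ifit3, where they read on the opposite strand, and at bases 173, 179 and 185 of Isg15, upstream of the start at base 251.

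MHC class II genes rose where class I genes fell. H2-Aa stood at 33.7, 39.1 and 38 FPKM in the FLM_G libraries and 0.077, 0.15 and 0.19 in the FLM_M libraries (log2 difference 5.06, SE 0.08, limma adjusted p = 2.34e-08), and Cd74, the invariant chain gene, at 360.5, 434 and 414 FPKM in the FLM_G libraries and 13.8, 16.2 and 14.4 in the FLM_M libraries (log2 difference 4.67, SE 0.093, limma adjusted p = 4.96e-08). Class II molecules show peptides to helper T cells, and the invariant chain guards them on the way to the lysosome. H2-Ab1 rose from 0.23 ± 0.025 to 35.9 ± 2.97 and H2-DMa, which loads the peptides, from 1.72 ± 0.31 to 63.6 ± 6.53. Of 13 tested members of the list 8 rose and 4 fell, the same counts as without scaling. The 4 that fell were the thiol reductase gene Ifi30 and the costimulatory genes Cd80, Cd86 and Cd40, and Ciita, the class II transactivator, was below the filter. Of 15 cytokine genes 9 rose and 5 fell, but 6 higher and 8 lower without scaling, where the median turned from 0.25 to -0.24. Il1a, the gene of interleukin-1 alpha, stood at 94.6, 91.6 and 95.4 FPKM in the FLM_G libraries and 0.036, 0.028 and 0.059 in the FLM_M libraries (log2 difference 6.51, SE 0.054, limma adjusted p = 3.07e-09), and Il1b rose from 0.23 ± 0.1 to 17.4 ± 0.59. Casp1, the protease that activates interleukin-1 beta, fell from 108 ± 8.57 to 35.5 ± 2.02, and Casp4 from 15.1 ± 1.16 to 4.5 ± 0.47. Tnf differed little, from 46.8 ± 1.98 to 53.9 ± 4.1 (log2 difference 0.20, SE 0.073, limma adjusted p = 0.0464), and the call was lost or its sign turned under 11 of the alternatives. Of 17 chemokine genes tested 6 rose and 10 fell (5 higher and 10 lower without scaling), and 10 passed the filter through 1 culture alone and had to differ. Ccl6 stood at 9629, 9641 and 9741 FPKM in the FLM_G libraries and 31.7, 29.9 and 33.4 in the FLM_M libraries (log2 difference 8.21, SE 0.064, limma adjusted p = 3.07e-09). Ccl12, Ccl7 and Ccl2, ligands of the monocyte receptor CCR2, fell from 212 ± 15 to 0.34 ± 0.3, from 246 ± 23.1 to 0.79 ± 0.2 and from 382 ± 23.1 to 25.8 ± 2.18. Ccl5 fell from 27.1 ± 2.39 to 0.37 ± 0.2 and Ccl4 from 251 ± 16.4 to 19.8 ± 2.75, whereas Ccl3 rose from 311 ± 22.1 to 789 ± 21.4.

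Surface receptor lists held genes of both directions, in shares that are read against the 34.6% of all genes that rose and the 33.7% that fell. Among chemokine receptors, integrins and adhesion genes 11 of 30 rose and 15 fell (11 higher and 16 lower without scaling). Fpr1 and Fpr2, receptors for bacterial formyl peptides, rose from 2.26 ± 0.46 to 116 ± 5.39 and from 3.27 ± 0.51 to 120.4 ± 2.29, and Cdh1 (E-cadherin), listed at 0 in FLM_M, was at 24.2 ± 1.28 in FLM_G. C5ar1, the complement C5a receptor, stood at 27.9, 32.7 and 5.08 FPKM in the FLM_G libraries and 26.1, 22.9 and 216 in the FLM_M libraries and was not called (limma adjusted p = 0.223), with replicate 3 of each culture far from the other two. Of 30 pattern recognition receptors 11 rose and 14 fell (8 higher and 19 lower without scaling). The fungal lectin receptors Clec7a (dectin-1) and Clec4n (dectin-2) were far higher in FLM_G. Clec7a stood at 896, 858 and 822 FPKM in the FLM_G libraries and 10.8, 9.88 and 12 in the FLM_M libraries (log2 difference 6.18, SE 0.079, limma adjusted p = 1.08e-08), and Clec4n at 534, 478 and 494 FPKM in the FLM_G libraries and 4.19, 5.08 and 4.68 in the FLM_M libraries (log2 difference 6.48, SE 0.078, limma adjusted p = 9.15e-09). Nod1 rose from 0.59 ± 0.037 to 12.2 ± 0.29, Cd180 fell from 83.9 ± 2.73 to 11.4 ± 0.67, and Clec4d was not called. Of 20 receptors and bridges that bind dying cells 8 rose and 8 fell (8 higher and 11 lower without scaling). Gas6, a bridging ligand of the TAM receptors, stood at 0.095, 0 and 0 FPKM in the FLM_G libraries and 239, 237 and 236 in the FLM_M libraries (log2 difference -7.85, SE 0.059, limma adjusted p = 3.07e-09). Axl, a TAM receptor, stood at 105, 108 and 106 FPKM in the FLM_G libraries and 0.019, 0.033 and 0.019 in the FLM_M libraries (log2 difference 6.72, SE 0.052, limma adjusted p = 3.07e-09), and Mfge8, a bridge to integrins, at 1388, 1569.8 and 1545 FPKM in the FLM_G libraries and 4.65, 4.47 and 4.09 in the FLM_M libraries (log2 difference 8.12, SE 0.072, limma adjusted p = 3.54e-09). Gas6 and Axl passed the filter through 1 culture alone, and for Mfge8 the groups were far apart. Lrp1 and Cd36 were not called. Fc, complement and scavenger receptors divided into 9 higher and 15 lower of 28 (6 higher and 19 lower without scaling), and Msr1 was not called. Of 6 Siglec genes, 3 of which passed through 1 culture alone, 5 rose (4 without scaling), Cd22 from 0.56 ± 0.025 to 15.8 ± 1.19 and Cd33 from 14.1 ± 0.78 to 103 ± 3.42 among them, and Siglec1, an interferon-inducible member, fell from 76.9 ± 12.3 to 37.1 ± 1.46. Of 8 genes of the MS4A family of membrane proteins, 6 of which passed through 1 culture alone and had to differ, 7 fell, also without scaling, Ms4a6c from 57 ± 2.17 to 0.9 ± 0.14 and Ms4a7 from 63.5 ± 4.39 to 5.13 ± 0.34 among them, and Ms4a8a rose from 0.025 ± 0.044 to 6.57 ± 0.35.

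Genes of cholesterol synthesis were higher in FLM_G, 24 of 24 tested with 0 lower, and with a median log2 difference of 1.92 (1.47 without scaling, where 23 rose). Serum carries cholesterol, and its share of the medium differed between the cultures, 10% for FLM_G and 20% for FLM_M; its part in the result was not tested. Mvd, the mevalonate decarboxylase gene, stood at 85.7, 93.9 and 98 FPKM in the FLM_G libraries and 4.39, 4.64 and 4.52 in the FLM_M libraries (log2 difference 4.08, SE 0.066, limma adjusted p = 2.42e-08). Cyp51, a sterol demethylase, rose from 5.06 ± 0.03 to 56 ± 2.9. Idi1 rose from 2.4 ± 1.49 to 29.7 ± 2.6, with FLM_M libraries at 3.77, 2.63 and 0.82. The CCAAT letters were in 14 of the 15 cholesterol genes with a promoter sequence (93.3%) against 40.1% of genes tested, and TCACNCCAC, a form of the sterol element bound by SREBP, in 1 of 15 against 0.95%. Of 36 fatty acid genes 28 rose and 5 fell (19 higher and 8 lower without scaling). Lpl, the secreted lipoprotein lipase, stood at 1298, 1166 and 1087 FPKM in the FLM_G libraries and 138, 159 and 149 in the FLM_M libraries (log2 difference 2.98, SE 0.09, limma adjusted p = 3.29e-07). Mgll, a lipase of monoglycerides, stood at 71.9, 26.1 and 80.7 FPKM in the FLM_G libraries and 0.015, 0 and 0 in the FLM_M libraries (log2 difference 5.76, SE 0.40, limma adjusted p = 1.95e-05), with FLM_G replicate 2 below the other two. Plin2, which coats lipid droplets, was not called. Targets of LXR were divided, with 10 of 20 higher and 6 lower, and 8 higher and 11 lower without scaling, where the median turned from 0.21 to -0.26. The sterol exporter gene Abcg1 rose from 3.47 ± 0.31 to 121 ± 7.55, and the desaturase gene Scd2 from 0.012 ± 0.0077 to 32.5 ± 1.43, while Scd1 was listed at 0 in FLM_M and at 14.5 ± 0.77 in FLM_G. Apoe, the apolipoprotein E gene, was low in both, at 2.31 ± 0.42 in FLM_M and 2.06 ± 0.26 in FLM_G, beside 164 in BMM, and was not called (log2 difference -0.11, SE 0.11, limma adjusted p = 0.395). Smpdl3a was not called either. Of 16 prostaglandin and leukotriene genes 13 rose and 3 fell (10 higher and 4 lower without scaling). Ptgs1 (cyclooxygenase-1) rose from 0.99 ± 0.16 to 51.2 ± 1.58, Hpgd, which inactivates prostaglandins, from 0.16 ± 0.053 to 38.4 ± 6.05, and the prostacyclin receptor gene Ptgir from 0.095 ± 0.034 to 43.6 ± 0.72, while Hpgds, a prostaglandin D synthase, fell from 71.3 ± 2.99 to 4.45 ± 0.49. Alox5 (5-lipoxygenase) was listed at 0 in FLM_M and at 16.3 ± 1.81 in FLM_G.

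Mitochondrially encoded and ribosomal protein RNAs were higher in FLM_G, by amounts that depended on the scaling, and the direction of the nuclear-encoded respiratory chain genes depended on it. All 13 mitochondrially encoded mRNAs rose, with a median log2 difference of 1.95, which was 1.46 without scaling and 0.10 with quantile normalization. mt-Co2, a cytochrome oxidase subunit, stood at 11171, 11199 and 12043 FPKM in the FLM_G libraries and 2381, 3273 and 3053 in the FLM_M libraries (log2 difference 1.99, SE 0.14, limma adjusted p = 1.85e-05). Nuclear copies of mitochondrial genes such as Gm10925 (from 4574 ± 727 to 16738 ± 973) and Gm29216 may share these reads. Of 29 nuclear-encoded subunits 23 rose and 3 fell, with a median of 0.41, but 6 higher and 9 lower without scaling, where the median turned to -0.08. Cox5a rose from 158 ± 2.12 to 343 ± 9.19. All 36 cytosolic ribosomal protein genes rose, with a median of 0.76, and 22 did so without scaling (median 0.28, or 0.38 with quantile normalization). Rplp1 rose from 847 ± 88.9 to 2318 ± 322. The pentose phosphate pathway, which makes NADPH, rose in 6 of 7 cases (5 without scaling), Pgd from 44.4 ± 1.31 to 111 ± 5.08 and Tkt from 51.4 ± 2.35 to 112 ± 5.3 among them. Glycolysis genes were divided, 7 of 21 higher and 6 lower, beside 34.6% and 33.7% of all genes tested. Without scaling 3 were higher and 12 lower. Aldoc, an aldolase of brain, rose from 0.11 ± 0.032 to 62.1 ± 3.06, Pgam1 from 117 ± 4.08 to 258 ± 2.82, and Tpi1 and the hexokinase gene Hk3 fell from 123 ± 5.73 to 50.9 ± 5.23 and from 78.3 ± 4.82 to 21.4 ± 1.38. Gapdh and Aldoa were not called. Of 17 citrate cycle genes 9 rose and 4 fell (3 higher and 8 lower without scaling). Idh1, a cytosolic source of NADPH, stood at 114, 108 and 106 FPKM in the FLM_G libraries and 17.6, 17.6 and 18.8 in the FLM_M libraries (log2 difference 2.54, SE 0.056, limma adjusted p = 7.52e-08), and Irg1 (also called Acod1), which makes itaconate, at 0.64, 0.44 and 0.57 FPKM in the FLM_G libraries and 17.7, 16.7 and 19.3 in the FLM_M libraries (log2 difference -3.61, SE 0.084, limma adjusted p = 9.41e-08). The groups of Idh1 did not overlap, while Irg1 passed the filter only through FLM_M and had to differ.

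Lysosome genes were mostly higher in FLM_G, 29 of 41 against 6 lower (21 higher and 16 lower without scaling). Atp6v0d2, a proton pump subunit of osteoclasts and alveolar macrophages, stood at 969.6, 878 and 901 FPKM in the FLM_G libraries and 14.4, 15.2 and 15.9 in the FLM_M libraries (log2 difference 5.83, SE 0.064, limma adjusted p = 7.55e-09). Psap, the precursor of the saposins that aid lipid breakdown, stood at 5279, 5577 and 5269 FPKM in the FLM_G libraries and 687, 665 and 657 in the FLM_M libraries (log2 difference 3.00, SE 0.068, limma adjusted p = 8.79e-08). Acp5, the tartrate-resistant phosphatase of osteoclasts, stood at 135, 158 and 162 FPKM in the FLM_G libraries and 0, 0.17 and 0 in the FLM_M libraries (log2 difference 7.18, SE 0.10, limma adjusted p = 1.41e-08). Tfeb, which codes for a regulator of lysosome genes, rose from 2.37 ± 0.16 to 12.8 ± 0.64. The palindrome TCACGTGA that TFEB binds was in 5 of 26 lysosome gene promoters (19.2%), against 2.3% of genes tested and 0.997% of all promoters. Among genes at least 4-fold higher in FLM_G it was in 3 of 251 promoters (1.2%). A part of TFEB in the differences was not tested. Ctsk, the cathepsin of osteoclasts (ENSMUSG00000028111, chromosome 3, 95499256 to 95509362), stood at 1039, 1036 and 1032 FPKM in the FLM_G libraries and 1.36, 1.43 and 1.07 in the FLM_M libraries (log2 difference 8.83, SE 0.072, limma adjusted p = 3.07e-09). FLM_M was near 1 FPKM in each library, and FLM_G far above it. Ctsd rose from 1721 ± 92.3 to 6828 ± 353, a call that was lost with quantile normalization (limma adjusted p = 0.322), and Ctsh rose from 0.19 ± 0.08 to 35.8 ± 8.3, while the cathepsin list as a whole was divided, 8 of 15 higher and 5 lower (7 higher and 7 lower without scaling). Of 15 osteoclast genes 10 rose and 4 fell (9 higher and 5 lower without scaling). Cd9, a tetraspanin, rose from 78 ± 6.29 to 1383 ± 52, and Tnfrsf11a, the receptor RANK, fell from 12.8 ± 0.39 to 3.8 ± 0.31. Of the matrix genes 7 of 15 rose and 6 fell (7 higher and 7 lower without scaling). The metalloprotease genes Mmp12 and Mmp8 rose from 30.5 ± 1.53 to 362 ± 30.1 and from 0.03 ± 0.0097 to 18 ± 1.44, and Adam8 fell from 316 ± 17.7 to 3.02 ± 0.62. Of 21 antioxidant genes 11 rose and 6 fell (8 higher and 8 lower without scaling), and Gsr, the glutathione reductase gene, rose from 17.1 ± 1.1 to 129 ± 9.24. Iron genes were divided, 5 of 16 higher and 7 lower, beside 34.6% and 33.7% of all genes tested. Without scaling 4 were higher and 10 lower. The ferritin heavy chain gene Fth1 stood at 30806, 35418 and 35736 FPKM in the FLM_G libraries and 9294, 9889 and 8978 in the FLM_M libraries (log2 difference 1.85, SE 0.12, limma adjusted p = 1.17e-05), Ncoa4, its autophagy receptor, rose from 14.2 ± 2.64 to 72 ± 7.01, and Hmox1, which breaks down heme, fell from 468 ± 32.6 to 166 ± 15.8.

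Stress and cytoskeleton genes went both ways, as did all genes tested, of which 34.6% rose and 33.7% fell. Of 17 ATF4 targets 5 rose and 10 fell (5 higher and 11 lower without scaling). Phgdh, the first enzyme of serine synthesis, stood at 72.9, 82.9 and 86.6 FPKM in the FLM_G libraries and 0.084, 0 and 0.057 in the FLM_M libraries (log2 difference 6.28, SE 0.082, limma adjusted p = 1.11e-08), while Asns, the asparagine synthetase, fell from 21.8 ± 1.06 to 6.2 ± 0.32. Atf4 was not called. Of 20 unfolded protein response genes 6 rose and 4 fell (5 higher and 9 lower without scaling). Xbp1, a transcription factor of this response, rose from 21.3 ± 1.35 to 95.5 ± 0.81 and Atf6, a sensor of misfolded protein, fell from 9.53 ± 1.19 to 2.52 ± 0.13. Of 22 immediate early genes 13 rose and 5 fell (10 higher and 8 lower without scaling). Btg2, which slows division, rose from 2.61 ± 0.23 to 49.1 ± 1.7, and Dusp4, a phosphatase of MAP kinases, fell from 18 ± 3.83 to 0.24 ± 0.055, as did Spred1, an inhibitor of RAS signalling (from 27.2 ± 1.79 to 4.54 ± 0.92). Targets of serum response factor and actin genes divided into 6 higher and 7 lower of 18, and 1 higher and 11 lower without scaling. Cnn2 (calponin 2) fell from 29.6 ± 0.15 to 0.53 ± 0.033 and Tpm4 from 196 ± 6.67 to 59.9 ± 4.01, and Actb stood at 1748, 1864 and 1851 FPKM in the FLM_G libraries and 1509, 1849 and 1642 in the FLM_M libraries and was not called (limma adjusted p = 0.252). Pfn1 (profilin 1) was not called either. Of 7 S100 genes 6 rose and 0 fell (5 higher and 1 lower without scaling). S100a11 rose from 126 ± 18.2 to 2101 ± 278 and S100a1 from 98.3 ± 5.06 to 1070.4 ± 99.5. Of 5 fetal-stage and imprinted genes tested 1 rose, 2 fell and 2 were not called (1 higher and 4 lower without scaling). Arid3a, a DNA-binding protein, rose from 5.76 ± 0.51 to 18.4 ± 5.24. Hmga2, a chromatin protein of fetal cells that passed the filter only through FLM_M, stood at 0.0061, 0 and 0 FPKM in the FLM_G libraries and 46, 42.3 and 41.3 in the FLM_M libraries (log2 difference -5.46, SE 0.064, limma adjusted p = 8.85e-09), and Igf2bp3, an RNA-binding protein of fetal tissue, at 12.6, 12.2 and 11.5 FPKM in the FLM_G libraries and 16.2, 13.7 and 15.2 in the FLM_M libraries (log2 difference -0.29, SE 0.075, limma adjusted p = 0.0121).

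**Figure D3:**
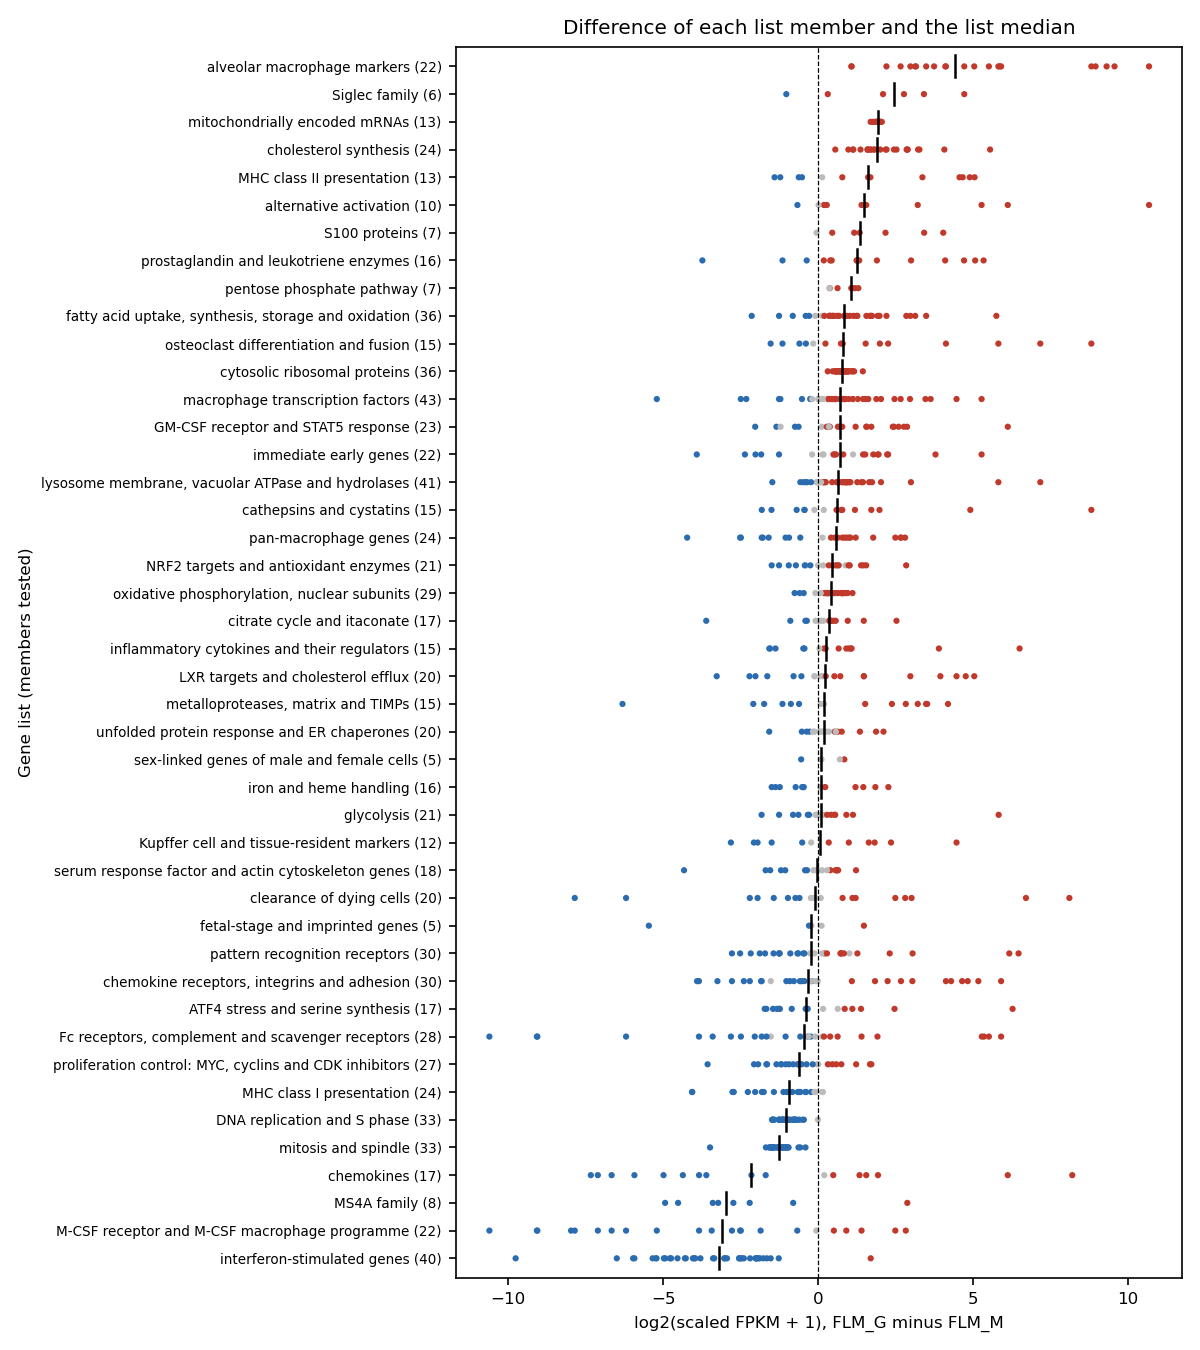
Log2 difference of each tested list member (FLM_G minus FLM_M, x axis) for 44 gene lists ordered by their median (black tick), with the number tested in brackets; red points were called higher, blue points called lower and grey points not called, and the dashed line is the median of all 11639 genes. The alveolar list lies wholly above 0, the mitosis list wholly below, and the interferon list below but for Zbp1.

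Some neighbouring genes moved together. Runs of at least 3 consecutive tested genes, all called and at least 4-fold different in 1 direction, were found at 23 places. The longest held 10 genes on chromosome 1 (173468485 to 174031810), among them Ifi204, Mndal, Mnda, Ifi203, Ifi205 and Pyhin1 of the AIM2-like sensor family, all lower in FLM_G, with log2 differences of -5.11 to -3.23. The C1q genes on chromosome 4 (C1qb, C1qc and C1qa, 136880129 to 136898803), the chemokine genes Ccl2, Ccl7 and Ccl12 on chromosome 11 (82035571 to 82103400) and Ifit2, Ifit3, Gm14446 and Ifit3b on chromosome 19 (34550694 to 34613401) fell as runs, as did H2-Q4, H2-Q5, H2-Q6 and H2-Q7 on chromosome 17 and Ms4a14, Ms4a7, Ms4a4a and Ms4a4c on chromosome 19. Runs that rose held H2-Ab1, H2-Aa and H2-Eb1 on chromosome 17 (34257689 to 34316674), the collagenase and elastase genes Mmp13, Mmp12 and Mmp8 on chromosome 9 (7272514 to 7568485), Clec4b1, Clec4a2 and Clec4n on chromosome 6, Pag1, Fabp5 and Fabp4 on chromosome 3, and Plgrkt, Cd274 (PD-L1), A930007I19Rik and Ric1 on chromosome 19. Members of such runs are often copies of one another, whose reads may be shared.

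Broader stretches of the chromosomes also differed, in a view chosen after the values had been seen. Over 6426 protein-coding genes with a mean of at least 5 FPKM the median log2 difference was 0.023, and 109 of 117 windows of 20 Mb with at least 20 genes had a median within 0.4 of 0. The other 8 lay on chromosome 1 (160 to 200 Mb, -0.788 and -0.774), chromosome 12 (0 to 40 Mb, 0.558 and 0.412), the X chromosome (100 to 120 Mb, 0.538, and 140 to 160 Mb, 0.884), chromosome 5 (80 to 100 Mb, -0.475) and chromosome 15 (0 to 20 Mb, -0.42). On chromosome 1 the 106 genes from 140 Mb onward had a median of -0.711, and 20.8% of them lay above 0. The 188 genes before that point had a median of 0.023. The median of the distal stretch was -0.749 to -0.693 when each FLM_G library was taken alone and -0.684 without the genes of the run of 10. Against BMM it stood at -0.68 in FLM_G and 0.051 in FLM_M. On the X chromosome the 84 genes from 100 Mb onward had a median of 0.791, and the 107 before it 0.131. Against BMM the distal stretch stood at 0.663 in FLM_G and -0.047 in FLM_M. Xist, the RNA that silences 1 X chromosome in female cells, lies in that stretch and stood at 52.5, 47.5 and 39.8 FPKM in the FLM_G libraries and 71.3, 68.5 and 64.1 in the FLM_M libraries (log2 difference -0.54, SE 0.11, limma adjusted p = 0.00352), against 0, 0.0016 and 0.0043 in BMM. Ddx3y, a gene of the Y chromosome, was at 0.0053 in FLM_G, 0 in FLM_M and 8.9 in BMM. Kdm5c, an X-linked demethylase, rose from 10.6 ± 0.87 to 20 ± 2.37 and Ddx3x, with 71.6, 64.8 and 17.7 FPKM in the FLM_G libraries and 21.9, 39.1 and 21.4 in the FLM_M libraries, was not called. Chromosomes 12 and 19 differed over their whole length, with medians of 0.269 (213 genes) and 0.339 (271 genes), and here FLM_M was the culture that stood apart from BMM, at -0.357 and -0.279, while FLM_G stood at -0.054 and 0.012. Chromosome 6 had a median of -0.173 (312 genes), with FLM_M at 0.21 and FLM_G at 0.047 against BMM, and chromosome 15 one of -0.121 (279 genes), with 0.146 and 0.006. The comparisons with BMM share these libraries and are given side by side only. These are RNA levels, and the number of gene copies was not measured.

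**Figure D4:**
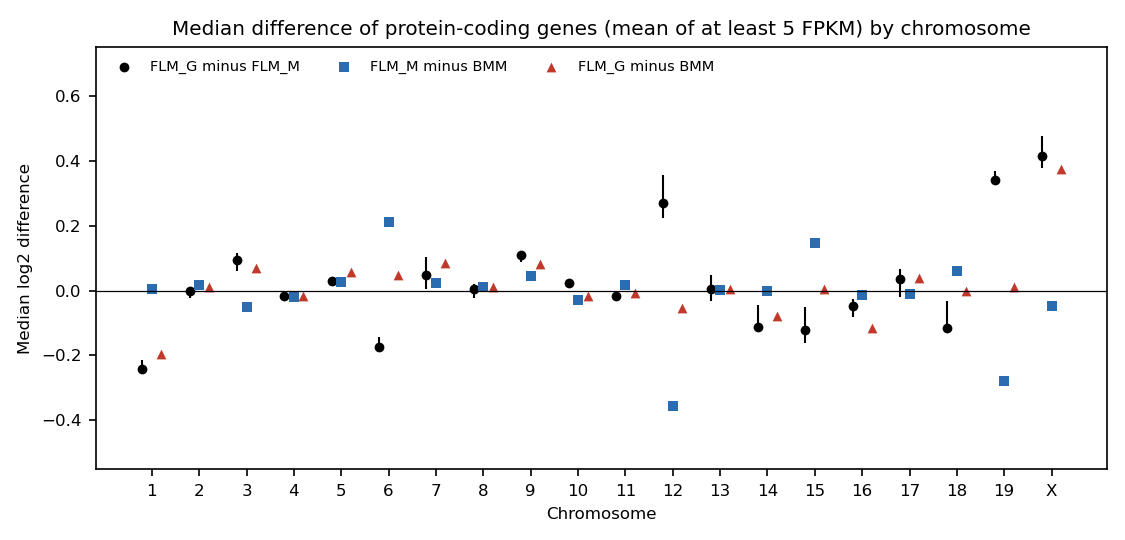
Median log2 difference (y axis) of protein-coding genes with a mean of at least 5 FPKM on each chromosome (x axis), for FLM_G minus FLM_M (black circles, with a bar from the lowest to the highest median when each FLM_G library is taken alone), FLM_M minus BMM (blue squares) and FLM_G minus BMM (red triangles). The black circle is at 0.415 on chromosome X and -0.243 on chromosome 1, where the red triangle lies farther from 0 than the blue square, and at 0.269, 0.339 and -0.173 on chromosomes 12, 19 and 6, where the blue square lies farther.

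The level in BMM, which neither chose nor tested these genes, lay nearer to FLM_M for most of them. Of the 1334 genes at least 2-fold higher in FLM_G, BMM was nearer to FLM_M in 1110 (83.2%), and of the 1194 at least 2-fold lower in 847 (70.9%). Among genes that differed at least 8-fold the numbers were 179 of 206 (86.9%) and 103 of 164 (62.8%). Car4, Nov and Ccl17 were at 0 in BMM as in FLM_M. C1qb was at 1332 FPKM in BMM, beside 1563 ± 129 in FLM_M, and Maf at 54.4. Several interferon genes were between the fetal liver cultures in BMM: Ifit3 at 13.9, Usp18 at 12.1 and Cxcl10 at 3.6. Axl was at 8.91, between its FLM_M and FLM_G levels.

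In 17 of the genes that reached 20 FPKM, 1 library lay over 4-fold from both others of its culture, C5ar1 and Egr1 among them. Ly6a, a surface antigen that fell, stood at 0.19, 0 and 0.064 FPKM in the FLM_G libraries and 34.5, 103 and 110.4 in the FLM_M libraries (log2 difference -6.10, SE 0.42, limma adjusted p = 1.99e-05), with FLM_M replicate 1 below the other two. Other large decreases outside the lists were those of Ctla2b, from 102 ± 11.2 to 0.29 ± 0.098, whose close copy Ctla2a may share its reads, and Pcp4l1, listed at 0 in FLM_G and at 138 ± 8.09 in FLM_M. Gm22133, annotated as a miRNA gene, was among the highest listed values and rose from 10325 ± 1588 to 26809 ± 4015, a difference whose sign turned with quantile normalization. Its span on chromosome 7 (45458089 to 45458197) lies inside that of Ftl1 (45457944 to 45459884), so it may hold reads of that gene. How reads of overlapping genes, or with several places in the genome, were counted is a step that no label describes.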

How the data were processed

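RNA of 3 wells per culture was read with a stranded mRNA kit, 1 end, 101 cycles, per the labels' protocols. The authors deposited FPKM and raw counts per gene. The submitters' processing notes name bcl2fastq, FastQC, cutadapt, HISAT2, StringTie and DESeq2, with mm10 and GRCm38; their roles and versions, and the strand setting used in counting, are not given in the sources used here, so overlapping and antisense genes cannot be told apart. FPKM was the measure. The deposited count table was an alternative only. Its sums were 782400 to 1170813 in the 6 libraries, far below the read numbers given above, and 36.1% of its counts lay in genes under 0.5 FPKM. Earlier results on these data, known beforehand, had it following reads of the opposite strand, which was not tested here. There were 0 columns of other samples.

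Genes with FPKM of at least 1 in 3 or more of the 6 libraries were kept. Values were multiplied by scaling factors derived from unweighted TMM (edgeR 4.0.16). From them log2(FPKM + 1) was computed and fitted with limma 3.58.1 (R 4.3.3), with 4 residual degrees of freedom. Benjamini-Hochberg adjustment was over all 11639 genes, with a threshold of 0.05. The test was also run on simulated data with independent noise in each library, whose outcome is not reported here. Such data cannot show whether the wells were separate cultures or which scaling is right. BMM was brought to the same scale. The members and lists were chosen with earlier results of these data known.

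The text names the 15 largest rises and falls of genes at 20 FPKM or more whose groups do not overlap, up to 4 called members of each list at 5 FPKM or more, some uncalled members at 50 FPKM or more, the 5 highest genes of each culture in part, members of runs, markers at 5 FPKM, and a set of regulators; a few genes named by this rule are not reported here. Chosen after their values were seen were Apoe, Bcl2l1, Bcl6, Bhlhe41, Ccl2, Ccl3, Ccl4, Ccl5, Ccnb2, Ccnd3, Cd40, Cd80, Cd86, Cdc20, Cdh5, Cdk6, Cdkn1a, Csf1, Cx3cr1, Egr1, Gpr34, Hpgds, Ifi30, Irf7, Irf9, Isg15, Jak2, Mrc1, Ms4a8a, Pim2, Pim3, Serpinb1a, Slco2b1, Stat2, Tnf, Tnfrsf11a, Tnfrsf13b, Trp53 and Zbp1. Gene coordinates are those of GENCODE M21 on GRCm38, matched by ID for 11594 of 11639 genes, and promoters are those of RefSeq on GRCm38.p6, matched by symbol. Other scalings, filters, pseudocounts and fits, count tests with edgeR and DESeq2 1.42.0, a replicate block and the removal of each library were tried as alternatives.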

Additional observations from a re-analysis of the deposited data

How the results depend on the processing

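Of 11639 genes, the number called was 7169 to 7820 when 1 library at a time was left out, with 3586 to 3949 higher and 3583 to 3871 lower. The replicate numbers did not pair the libraries (deviations of same-numbered libraries correlated at 0.0333, 0.0376 and -0.0901), and with the replicate number as a block 7610 genes were called. A mean of at least 5 FPKM left 7151 genes, of which 5021 were called (2666 higher, 2355 lower), 1553 at least 2-fold (840 higher, 713 lower). A limma test against a 1.5-fold change called 3018 (1571 higher, 1447 lower). Without scaling 2105 were higher and 6823 lower, and 868 and 2137 at least 2-fold. On the deposited counts edgeR called 2660 (1304 higher, 1356 lower), of which 1769 were among the 7947, 1684 in the same direction. DESeq2 called 2372 (1338 higher, 1034 lower), of which 1581 were among the 7947, 1518 in the same direction. Of all genes tested 68.3% were called with FPKM, and neither shared number was a larger part of its count calls. The cause of the lower numbers was not tested. Among named genes the sign turned without scaling for Klf2 (-0.13), Bcl2l1 (-0.11), Tnf (-0.28), Jak2 (-0.30), Actb (-0.36), Aldoa (-0.39), Atf4 (-0.32), Calr (-0.36), Fcgr3 (-0.34), Lrp1 (-0.39) and Plin2 (-0.35). With quantile normalization it turned for Actb (-1.12), Aldoa (-0.65), Atf4 (-0.26), Calr (-0.70), Fcgr3 (-0.32), Lrp1 (-0.17), Plin2 (-0.27), Tnf (-0.011), Gm22133 (-0.46) and Gm29216 (-0.32), and Gm10925 came out at 0. Leaving out 1 library at a time gave -0.23 to 0.12 for Cd36, -0.12 to 0.042 for Gapdh and -0.15 to 0.046 for Pfn1, none of them called with all libraries. Gpr34 and Myc were not called without scaling (limma adjusted p = 0.168 and 0.0827), nor Ctsd with quantile normalization (limma adjusted p = 0.322). TMM without genes of at least 500 FPKM, added after the data had been seen, called 7940.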
